A study of Mus musculus with 30 samples.

Results

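The genes described here are 49 genes of mitosis: the cyclins and kinases that drive entry into it, the spindle checkpoint, the kinetochore, mitotic kinesins, condensin and the proteins that end division. They were taken by symbol from a table of 49315 genes, each symbol matched exactly 1 row, and all 49 passed the filter on low counts that left 17774 genes for testing. Their values were compared across tumour cells from the mammary fat pad and from the lung of 2 mouse strains, and members with long transcripts, such as Cenpe, Cenpf and Mki67, were set against members with short ones, such as Aurkb and Birc5. Over exons merged across all annotated transcripts, the members ran from 1531 bases (Ccnb2) to 15433 bases (Cenpf), and the GC content of their longest transcript from 34.8% (Ncapg) to 56.1% (Espl1).

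RNA came from sorted cells of 4T1-tdTomato, a carcinoma line of the BALB/c mammary gland that carries a red fluorescent protein, grown in female mice. The groups of 5 libraries each were BALB/c tumour taken on days 21 and 22, BALB/c DTC taken from lung on day 7, BALB/c macro-met taken from lung on days 21 and 23, and, in the NSG strain, tumour of day 10, DTC of lung on day 7 and macro-met of lung on days 19 and 20. DTC is not spelled out in the labels. BALB/c mice have an intact immune system, and NSG mice lack T, B and NK cells. Tumours grew from 200000 cells in the mammary fat pad, and lung samples from 500000 cells given by tail vein, which passes over the steps by which cells leave a tumour. In all 6 groups live single cells were sorted for tdTomato and against CD45, a marker of blood cells. Lung groups therefore differ from tumours in organ, route and number of cells at once, and only DTCs were taken on 1 common day in both strains, so these cannot be told apart from stage nor, outside DTCs, the day from strain. Nothing in the labels ties each library to its own animal, so p-values measure the spread between these libraries.

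A cell enters mitosis when cyclin B and its kinase Cdk1 become active, and the transcription factor Foxm1 and the kinases Plk1, Aurka and Aurkb act beside them. Condensin and topoisomerase compact the chromosomes, the kinetochore links centromeres to microtubules, and kinesins build the spindle and move chromosomes along it. The spindle checkpoint holds back the anaphase-promoting complex until all kinetochores are attached, after which separase opens cohesin and the cell divides. Messenger RNAs of these genes are known to peak in G2 and mitosis, so in bulk samples fewer dividing cells and less of the mRNA per cell cannot be told apart.

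Libraries held 29832098 to 65621525 counts. Summed CPM (counts scaled to library size by TMM) of 10 markers of the 4T1 epithelium lay, for BALB/c mice, at 7176 to 8044 in tumours, 8420 to 11186 in DTCs and 5113 to 7887 in macro-mets. They ran from 9979 to 10407 in NSG tumours, 4788 to 8258 in NSG DTCs and 5705 to 6504 in NSG macro-mets, and no marker was at 0 in any group. Summed markers of lung epithelium (16 genes) reached 4244 and 1795 CPM in BALB/c DTC libraries 1 and 2, against 166 to 368 in the other 3, 83.2 to 132 in NSG DTCs, 67.6 to 131 in macro-mets and 36.5 to 122 in tumours. All 15 tested lung markers were higher in BALB/c DTCs than in NSG DTCs, and 4 were at 0 in BALB/c tumours (Sftpa1, Scgb3a1, Lamp3 and Scgb3a2). Of 15 endothelial markers 13 rose in BALB/c DTCs and 12 in NSG DTCs over their tumours. The part of these cells in the members' values was not tested beyond the fits without those libraries. Skeletal muscle markers (12 genes) reached 930 CPM in BALB/c tumour 4 and 373 in NSG macro-met 3. Markers of T, B and NK cells (12 genes) stayed at or under 9.07 CPM everywhere (Klrb1c and Ms4a1 were among those at 0 in each NSG group). Gene levels also followed base composition: the rank correlation, across all tested genes, between a library's deviation from the 30-library mean and GC content ran from -0.63 in NSG DTC 3 to 0.48 in BALB/c DTC 5. It was negative in all 5 NSG DTC libraries and all 5 BALB/c tumours, and positive in all 10 macro-mets.

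Because the members differed by base composition and length, stretches of 90 bases from the middle of 4 coding sequences are printed to show that difference, with G and C in capitals and every A and T in lower case. Coordinates are those of the gene in GRCm38. Smc4, a condensin ATPase (chr3:69004738-69034623, plus strand), and Cenpe, a kinetochore kinesin (chr3:135212537-135273611, plus strand), rose in NSG DTCs over tumours and were not called in BALB/c DTCs. Aurkb, the kinase of the chromosomal passenger complex (chr11:69045647-69051664, plus strand), and Espl1, which encodes separase (chr15:102296266-102324357, plus strand), rose most of the members in BALB/c DTCs over tumours. G and C made up 35.6% of the Smc4 window, 43.3% of the Cenpe window, 57.8% of the Aurkb window and 52.2% of the Espl1 window.
Smc4: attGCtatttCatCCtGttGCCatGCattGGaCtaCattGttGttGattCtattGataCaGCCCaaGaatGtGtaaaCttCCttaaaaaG
Cenpe: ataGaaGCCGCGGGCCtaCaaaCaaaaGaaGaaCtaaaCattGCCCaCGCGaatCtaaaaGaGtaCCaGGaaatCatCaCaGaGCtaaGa
Aurkb: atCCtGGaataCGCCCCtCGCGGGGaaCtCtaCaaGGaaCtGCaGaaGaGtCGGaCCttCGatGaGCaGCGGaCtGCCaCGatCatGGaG
Espl1: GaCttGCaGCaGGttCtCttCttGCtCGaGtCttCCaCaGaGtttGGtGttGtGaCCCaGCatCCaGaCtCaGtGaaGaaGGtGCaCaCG

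Promoters of the members, chosen as mitosis genes, were set against all promoters, which cannot show why groups of members moved together or apart. RefSeq (GRCm38.p6) gave a window of 300 bases, 250 before and 50 after the start, for 42 of the 49 members. Aurkb, Foxm1, Incenp, Kif20a, Smc4, Ccna2 and Tpx2 had none. Each window was searched on both strands for the cell cycle homology region, written TTTGAA or TTCGAA, and for CCAAT, the site of NF-Y. The DREAM complex is known to bind the first of these, as are the complexes that its MuvB core forms with MYBL2 and FOXM1. The cell cycle homology region was found in 33 of 42 members (78.6%), against 21.7% of 27025 promoters. CCAAT was found in 31 (73.8%), against 41.1%, and both in 28 (66.7%), against 9.65%. A match is a string of letters and was not tested as a binding site. The first motif was in 11 of the 15 promoters from the 16 members lowest in GC and in 10 of the 12 from the 16 highest, so both kinds carried it. The 120 bases before the RefSeq start are printed for 4 members that differ in length and GC content, with the motifs in capitals: Cdk1 (chr10:69352913-69353032, minus strand), Espl1 (chr15:102296173-102296292, plus strand), Top2a (chr11:99024190-99024309, minus strand) and Kif11 (chr19:37376262-37376381, plus strand).
Cdk1: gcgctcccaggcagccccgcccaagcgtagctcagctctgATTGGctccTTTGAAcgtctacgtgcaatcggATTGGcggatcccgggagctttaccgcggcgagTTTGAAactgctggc
Espl1: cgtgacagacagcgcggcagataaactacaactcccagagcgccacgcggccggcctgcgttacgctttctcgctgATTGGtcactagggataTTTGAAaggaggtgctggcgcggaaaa
Top2a: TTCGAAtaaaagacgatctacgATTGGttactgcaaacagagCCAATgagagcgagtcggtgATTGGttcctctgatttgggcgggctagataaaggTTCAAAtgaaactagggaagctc
Kif11: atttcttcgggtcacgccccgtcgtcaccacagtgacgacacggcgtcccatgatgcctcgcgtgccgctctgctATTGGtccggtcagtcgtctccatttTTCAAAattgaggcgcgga

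The 49 genes did not move as a block. Some long or AT-rich members, among them Cenpe, Cenpf and Smc4, had their highest group mean in NSG DTCs and, within each strain, their lowest in macro-mets. Others did not: in BALB/c macro-mets over tumours 3 of the 16 longest were called higher and 4 lower. Of the 16 lowest in GC, 3 were called higher and 5 lower there, against 19.6% and 18.2% of all tested genes. GC-rich and short members such as Aurkb and Plk1 had their lowest group mean in BALB/c tumours, as did Cdk1, of middle length and GC content. Compared per length, in the authors' TPM, Cdc20 (lowest at 141.7 ± 56.5 in BALB/c tumours and highest at 289.8 ± 47.5 in BALB/c DTCs, mean ± SD, n = 5) and Ccnb2 were the 2 most abundant members in each group. Kif18a was the least abundant in each group, at 5.41 ± 0.79 TPM in NSG DTCs and 0.16 ± 0.09 TPM in NSG macro-mets.

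**Figure D1:**
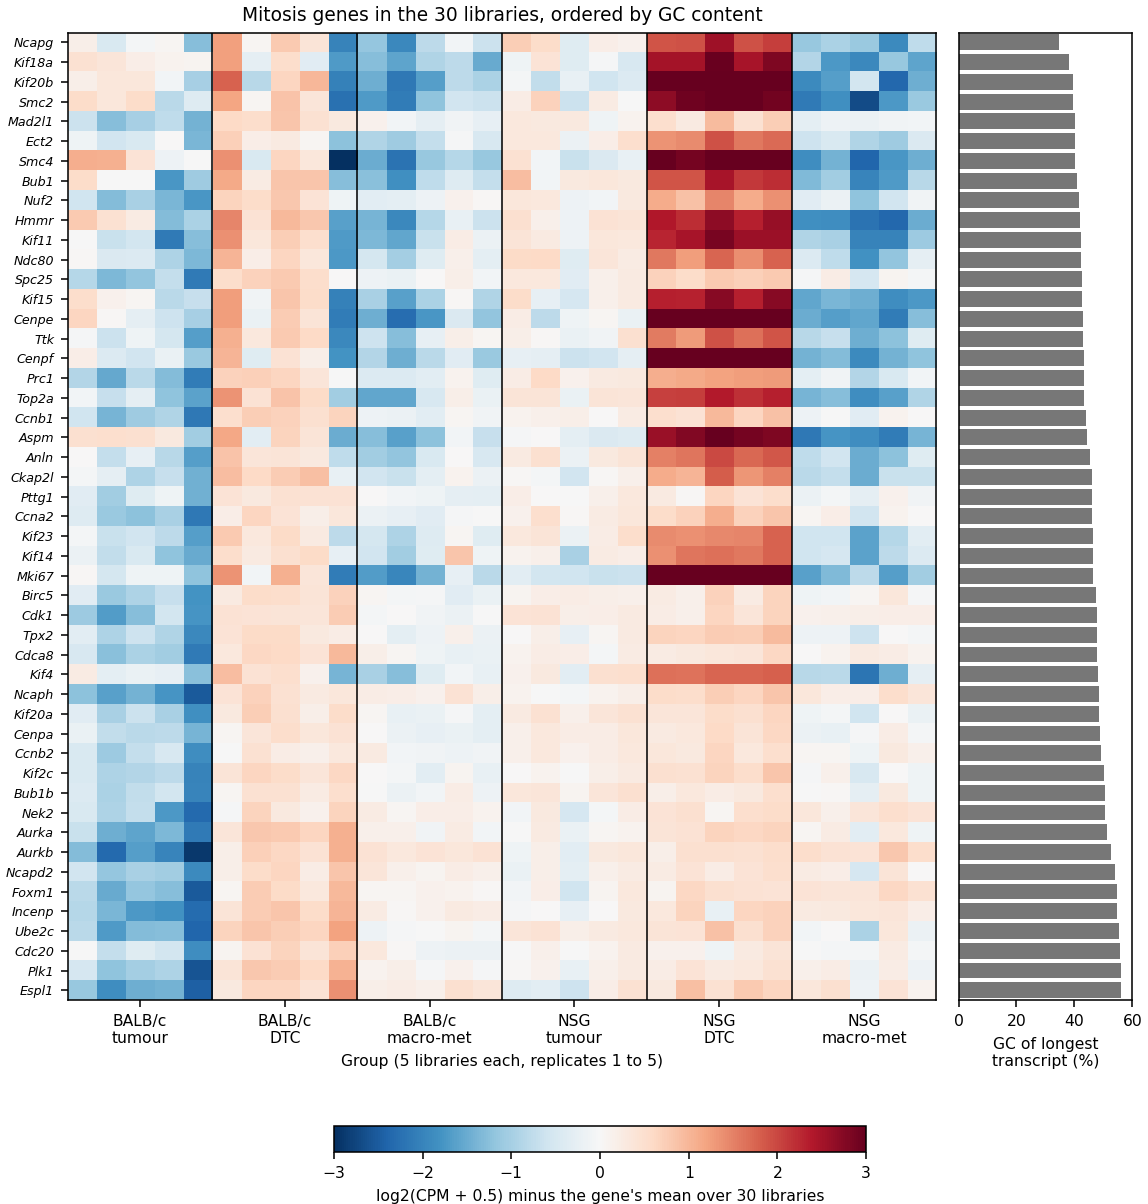
Level of each member in each of the 30 libraries, as log2(CPM + 0.5) minus the gene's mean over all libraries (red higher, blue lower), with members in rows from lowest to highest GC content of the longest transcript (grey bars, percent) and libraries in columns by group. Most AT-rich members at the top are highest in the 5 NSG DTC libraries and low in BALB/c DTC 5, but in Mad2l1 and Spc25 the DTCs of both strains overlap. GC-rich members at the bottom have their lowest group mean in BALB/c tumours.

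Cenpe, the kinesin that carries chromosomes to the spindle equator, showed the first pattern. Cenpe had 11.4, 7.27, 5.76, 4.39 and 3.32 CPM in BALB/c tumours, 17.5, 6.10, 12.3, 9.46 and 1.25 CPM in BALB/c DTCs and 2.23, 1.05, 1.75, 5.08 and 2.85 CPM in BALB/c macro-mets. Cenpe had 8.37, 3.89, 6.47, 7.32 and 6.04 CPM in NSG tumours, 74.8, 79.4, 89.0, 78.8 and 85.4 CPM in NSG DTCs and 2.19, 1.90, 2.05, 1.25 and 2.63 CPM in NSG macro-mets. All 5 NSG DTC libraries lay above every other library, and DTC and tumour ranges overlapped in BALB/c mice, where DTC 1 was the highest and DTC 5 the lowest of these 10 libraries. Mki67, the coat protein of mitotic chromosomes known as Ki-67, was likewise highest in NSG DTCs. Mki67 had 24.3, 16.3, 21.9, 21.8 and 9.99 CPM in BALB/c tumours, 61.9, 22.4, 50.7, 31.0 and 5.17 CPM in BALB/c DTCs and 7.07, 5.73, 8.56, 20.0 and 13.3 CPM in BALB/c macro-mets. Mki67 had 19.2, 16.2, 15.5, 14.8 and 15.1 CPM in NSG tumours, 199, 262, 275, 245 and 253 CPM in NSG DTCs and 7.41, 9.23, 13.6, 7.22 and 11.2 CPM in NSG macro-mets. The lowest NSG DTC library, at 199.5 CPM, stood above the highest of the other 25, BALB/c DTC 1 at 61.9 CPM. Cenpf, a large kinetochore protein and the member with the longest merged exons, ran from 100.1 to 127.4 CPM in NSG DTCs and from 2.62 to 23.1 CPM in the other groups together. Smc4, the partner of Smc2 in condensin, ran from 174.3 to 222 CPM in NSG DTCs, and from 2.46 CPM (BALB/c DTC 5) to 60.7 CPM (BALB/c DTC 1) elsewhere.

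Top2a, the topoisomerase that untangles sister chromatids, was also highest in NSG DTCs. Top2a had 101, 66.5, 89.3, 46.1 and 35.4 CPM in BALB/c tumours, 276, 147, 195, 162 and 51.8 CPM in BALB/c DTCs and 36.6, 36.3, 77.3, 123 and 93.2 CPM in BALB/c macro-mets. Top2a had 141, 141, 93.9, 141 and 139.7 CPM in NSG tumours, 447, 458, 566, 497 and 542 CPM in NSG DTCs and 40.7, 44.4, 29.4, 34.7 and 57.8 CPM in NSG macro-mets. Macro-mets of NSG mice were lower than every NSG tumour. BALB/c DTC 5, at 51.8 CPM, lay within the range of BALB/c tumours, and the other 4 BALB/c DTC libraries lay above it.

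Aurkb, the catalytic subunit of the chromosomal passenger complex, showed the second pattern. Aurkb had 19.5, 9.33, 15.3, 12.1 and 6.15 CPM in BALB/c tumours, 55.9, 81.2, 76.0, 66.6 and 104 CPM in BALB/c DTCs and 66.3, 61.2, 65.8, 62.2 and 65.97 CPM in BALB/c macro-mets. Aurkb had 44.7, 55.7, 39.1, 59.99 and 62.1 CPM in NSG tumours, 55.0, 69.1, 68.9, 68.0 and 70.4 CPM in NSG DTCs and 70.9, 66.01, 65.5, 86.3 and 71.2 CPM in NSG macro-mets. The 5 BALB/c tumours lay below all other 25 libraries. Birc5 (survivin, of the same complex) followed, though less far. Birc5 had 51.2, 29.5, 33.8, 39.9 and 18.3 CPM in BALB/c tumours, 77.7, 95.4, 93.5, 84.8 and 105 CPM in BALB/c DTCs and 67.4, 62.2, 62.7, 50.7 and 56.0 CPM in BALB/c macro-mets. Birc5 had 68.7, 73.7, 75.8, 73.2 and 71.7 CPM in NSG tumours, 76.2, 71.6, 104, 76.2 and 104 CPM in NSG DTCs and 58.6, 60.9, 67.1, 82.3 and 63.5 CPM in NSG macro-mets. The highest BALB/c tumour, at 51.2 CPM, was above 1 library of the other groups, BALB/c macro-met 4 at 50.7 CPM. Cdk1, the kinase of mitotic entry, had 45.2, 30.2, 40.0, 66.6 and 28.1 CPM in BALB/c tumours, and no library of any other group was under 86.5 CPM. Foxm1 ran from 10.1 to 34.0 CPM in BALB/c tumours and from 39.3 to 118.6 CPM in the other groups. Plk1, the kinase needed for centrosome maturation, ran from 11.1 to 48.7 CPM in BALB/c tumours and from 59.5 to 143.9 CPM elsewhere.

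**Figure D2:**
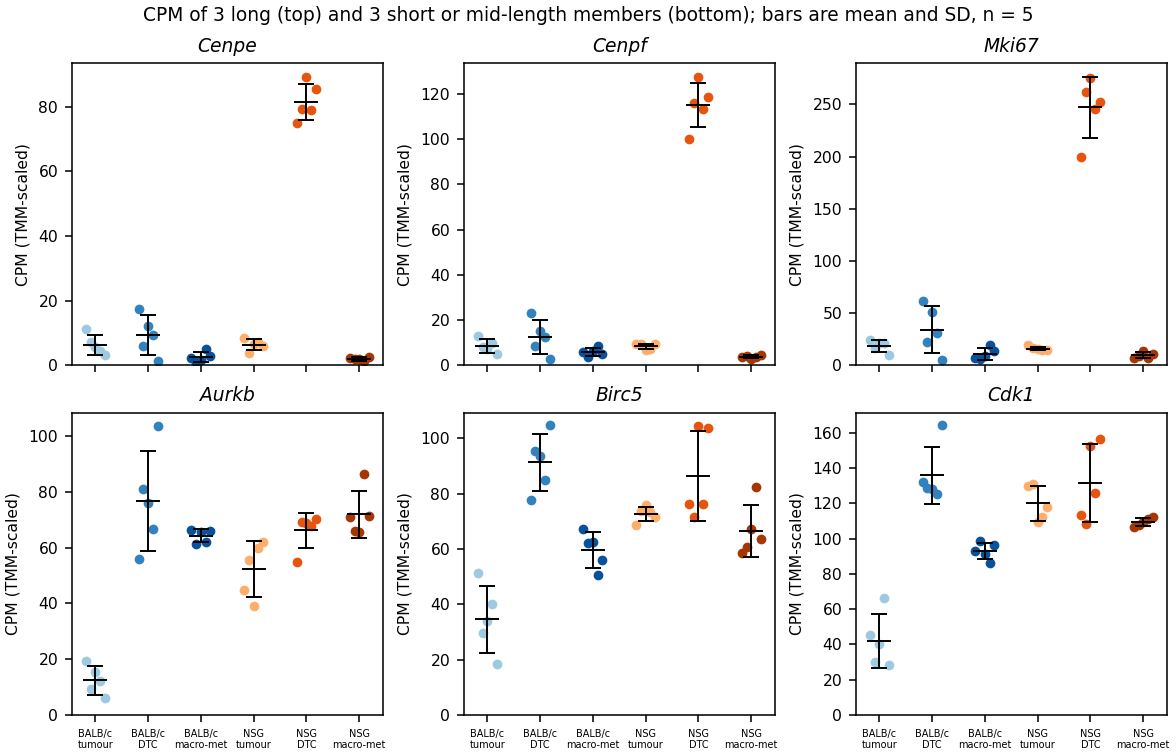
CPM (TMM-scaled, y axis from 0) of 6 members in each library, with points for libraries and bars for mean ± SD (n = 5) of each group. Cenpe, Cenpf and Mki67 stand apart in NSG DTCs, and Aurkb, Birc5 and Cdk1 are lowest in BALB/c tumours.

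In BALB/c mice, DTCs at day 7 held more mRNA of most members than tumours did. edgeR's quasi-likelihood test called 35 of 49 members higher and 0 lower (Benjamini-Hochberg adjusted p under 0.05 over all tested genes), against 20.4% of tested genes higher and 21% lower. The median log2 fold change was 1.26, against -0.09 over all tested genes. Aurkb rose most (log2 fold change 2.62 ± 0.20 (SE), adjusted p = 5.45e-11), then Espl1 (2.38 ± 0.23) and Incenp, the scaffold of the passenger complex (2.28 ± 0.19). All 5 members of the cyclin group rose: Foxm1 by 1.95 ± 0.21, Ccnb1 by 1.76 ± 0.17, Cdk1 by 1.69 ± 0.15, Ccna2 by 1.45 ± 0.19 and Ccnb2 by 1.09 ± 0.16. So did the 3 mitotic kinases Aurka (2.14 ± 0.18), Plk1 (1.86 ± 0.21) and Nek2 (1.47 ± 0.22), all 4 members of the passenger complex, and all 4 of the anaphase group, among them Ube2c, the ubiquitin-conjugating enzyme of the anaphase-promoting complex (2.25 ± 0.21).

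The kinetochore and chromosome members were less uniform. Spc25 (1.78 ± 0.20), Nuf2 (1.68 ± 0.20), Cenpa, the histone of the centromere (1.10 ± 0.14), and Ndc80 (0.91 ± 0.35) rose, and Cenpe (0.53 ± 0.42, adjusted p = 0.318) and Cenpf (0.53 ± 0.31, adjusted p = 0.178) did not pass. Of 9 kinesins 5 rose, with Kif2c, which depolymerizes microtubules, at 1.47 ± 0.17 and Kif20a at 1.35 ± 0.17. Kif18a (-0.07 ± 0.42) and Kif20b (0.66 ± 0.51) did not pass. Of the condensin and chromosome group 3 of 7 rose, Ncaph (2.14 ± 0.15), Ncapd2 (1.59 ± 0.18) and Top2a (1.30 ± 0.34), with Smc4 at -0.26 ± 0.43 and Mki67 at 0.86 ± 0.38 (adjusted p = 0.073) not called. Of the spindle assembly group Prc1, Tpx2 and Ckap2l rose, and in the cytokinesis pair Anln rose (0.90 ± 0.27) and Ect2 (0.57 ± 0.26) did not pass. Ndc80 lost its call in 7 of the 10 fits that left out a library (adjusted p 0.0521 to 0.131), and Ttk in 6. Without BALB/c DTC 5, which was low in the long members, 43 members were called higher, and without the libraries rich in lung markers (DTC 1 and 2) 31 were. Of the 10 markers of the 4T1 epithelium 5 rose and 1 fell in the same comparison, and their part in the members' values was not tested.

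In NSG mice other members rose most in DTCs over tumours. There 33 members were called higher and 0 lower, against 16% and 9.55% of tested genes, with a median of 0.72 against 0.06 over all tested genes. Mki67 (log2 fold change 3.94 ± 0.43 (SE), adjusted p = 4.13e-07), Kif20b, a kinesin of late cytokinesis (3.93 ± 0.56), Cenpf (3.78 ± 0.34) and Cenpe (3.66 ± 0.46) rose most. Smc4 (3.24 ± 0.46), Smc2 (2.83 ± 0.45), Aspm, which organizes spindle poles (3.15 ± 0.38), Kif18a (3.01 ± 0.44), Kif15 (2.48 ± 0.41), Kif11, the motor that separates the poles (2.34 ± 0.42), Hmmr (2.22 ± 0.42) and Top2a (1.94 ± 0.35) followed.

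By role, 8 of 9 kinesins, 6 of 7 condensin and chromosome members, 5 of 6 kinetochore members, 5 of 5 spindle assembly members, 3 of 4 checkpoint members and both cytokinesis members rose in NSG DTCs. Of the checkpoint, Bub1 rose by 1.78 ± 0.39, Ttk, the kinase also named Mps1, by 1.62 ± 0.38 and Mad2l1 by 0.42 ± 0.14, with Bub1b at -0.03 ± 0.17. Of the passenger complex 0 of 4 were called, with Aurkb at 0.34 ± 0.19 (adjusted p = 0.199) and Birc5 at 0.25 ± 0.16 (adjusted p = 0.283). Ccnb1 (0.56 ± 0.16) and Ccna2 (0.52 ± 0.19) of the 5 cyclin members, Aurka (0.52 ± 0.17) of the 3 kinases and Espl1 (0.72 ± 0.22) of the 4 anaphase members rose. Of the 33 calls 7 did not hold in every fit that left out a library. Ccna2 and Kif2c lost theirs in 8 of 10 such fits, Spc25 in 6, Aurka in 5 and Mad2l1 in 3. Espl1 lost its call without NSG tumour 1 (log2 fold change 0.62) or NSG DTC 2 (0.60), and Ccnb1 without NSG DTC 3 (0.45). Of the members that rose, 19 rose in both strains, 54.3% of the 35 of BALB/c and 57.6% of the 33 of NSG. The 16 called in BALB/c mice alone included Aurkb, Birc5, Cdk1, Foxm1, Plk1 and Cdc20. The 14 called in NSG mice alone included Cenpe, Cenpf, Mki67, Smc2, Smc4 and Kif18a. Both lists depend on the fit and the libraries. Without BALB/c DTC 5, 43 members were called higher in BALB/c DTCs over tumours. Limma on log2(TPM + 1) called 44 higher in NSG DTCs over tumours and 33 in BALB/c DTCs over tumours. These are calls, and the difference between strains is tested next.

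**Figure D3:**
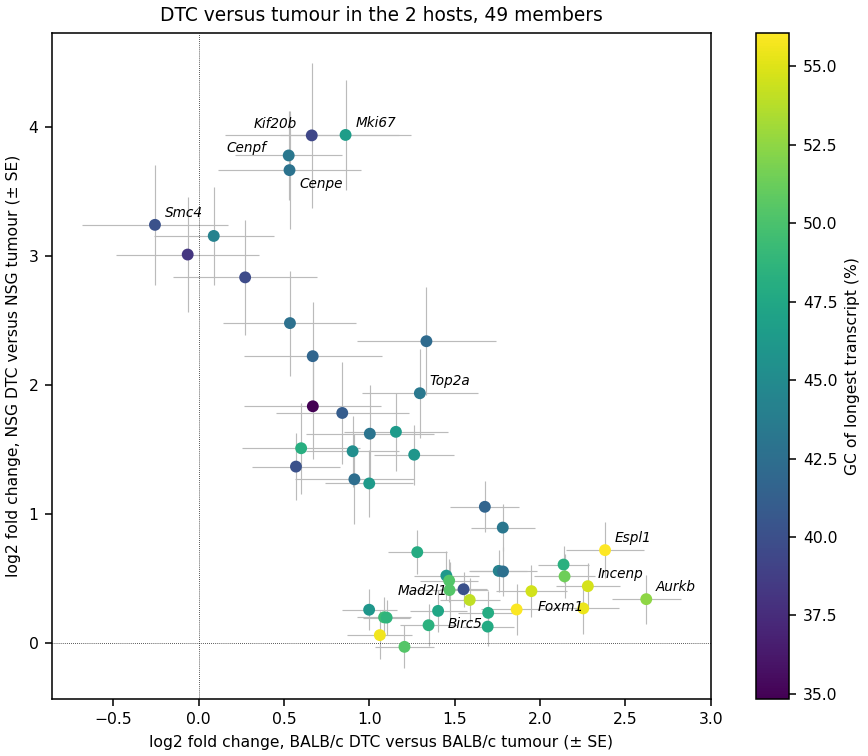
Log2 fold change (± SE) of each of the 49 members for DTC over tumour in BALB/c mice (x axis) and NSG mice (y axis), coloured by GC content. AT-rich members such as Smc4 and Kif18a lie high on the NSG axis and near 0 on the BALB/c axis, and GC-rich members such as Aurkb and Espl1 lie far along the BALB/c axis and under 1 on the NSG axis.

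Whether the change differed between strains was tested as an interaction, BALB/c log2 fold change minus NSG log2 fold change. For DTC over tumour, 25 members had a larger and 10 a smaller value in BALB/c mice, against 15% and 18.4% of tested genes. Aurkb differed by 2.28 ± 0.27 (adjusted p = 9.89e-07), Cdk1 by 1.56 ± 0.21, Plk1 by 1.60 ± 0.28, Foxm1 by 1.55 ± 0.28, Ccnb1 by 1.20 ± 0.23 and Birc5 by 1.15 ± 0.23. In the other direction Cenpf differed by -3.25 ± 0.45 (adjusted p = 4.95e-06), Cenpe by -3.13 ± 0.60 and Mki67 by -3.08 ± 0.55. Top2a, which rose in both strains, had -0.64 ± 0.47 (adjusted p = 0.321). Hmmr lost its call in 7 of the 20 fits that left out a library.

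Macro-mets held less mRNA of the members than DTCs did in both strains. In BALB/c mice 37 members were called lower and 0 higher, against 14.2% and 16.6% of tested genes (median -0.68, all tested genes -0.04). The largest falls were those of Kif20b (-2.29 ± 0.54), Kif18a (-1.86 ± 0.44) and Cenpe (-1.84 ± 0.44), then Hmmr (-1.68 ± 0.41), Smc4 (-1.66 ± 0.44) and Mki67 (-1.64 ± 0.39). All 5 spindle assembly members fell, as did 5 of 6 kinetochore members, 7 of 9 kinesins and both cytokinesis members. Cdk1 (-0.55 ± 0.15), Ccnb1 (-0.75 ± 0.16), Birc5 (-0.61 ± 0.16) and Plk1 (-0.67 ± 0.20) fell without overlap between the groups, Aurkb (-0.25 ± 0.19) and Foxm1 (-0.50 ± 0.20) did not pass, and Cenpf (-1.08 ± 0.32) lost its call without BALB/c DTC 1 (-0.74). Of the 37 calls 13 did not hold in every fit that left out a library. Cdc20 lost its call in 8 of 10 such fits, Ect2, Kif11 and Kif23 in 6 each, Ccna2 in 5, Tpx2 in 4, Ncapg in 2, and Anln, Incenp, Kif15, Nuf2, Spc25 and Cenpf in 1 each. Limma on log2(TPM + 1) called 22 members lower, and edgeR without the 2 libraries rich in lung markers 26. Summed markers of fibroblasts and smooth muscle (12 genes, none at 0 in any group) ran from 369 to 583 CPM in BALB/c macro-mets, against 91.3 to 195 CPM in BALB/c DTCs, and from 476 to 545 CPM in NSG macro-mets, against 144 to 195 CPM in NSG DTCs. Gene by gene 4 of these 12 rose and 2 fell in BALB/c mice, and 5 rose and 0 fell in NSG mice. Of the markers of the 4T1 epithelium 6 of 10 fell in BALB/c mice and 7 of 10 in NSG mice. The part of either list in the members' values was not tested.

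In NSG mice 35 members were called lower and 0 higher, against 22.4% and 21.3% of tested genes (median -0.94, all tested genes 0.02). All 9 kinesins and all 6 kinetochore members fell. Cenpe fell furthest (log2 fold change -5.34 ± 0.50 (SE), adjusted p = 3.50e-09), then Kif20b (-5.25 ± 0.60), Smc2 (-4.97 ± 0.50), Aspm (-4.95 ± 0.41) and Kif18a (-4.92 ± 0.49). Aurka lost its call in 1 of the 10 fits that left out a library. Cenpf (-4.91 ± 0.36), Smc4 (-4.91 ± 0.50), Mki67 (-4.66 ± 0.44) and Top2a (-3.60 ± 0.37) fell with no overlap between the groups. None of the passenger complex was called, with Aurkb at 0.12 ± 0.19 and Birc5 at -0.38 ± 0.16. The 31 members lower in both strains were 83.8% of the BALB/c calls and 88.6% of the NSG calls. The interaction called 24 members higher (a smaller fall in BALB/c mice) and 0 lower, against 16.6% and 11.6% of tested genes. Cenpf differed by 3.83 ± 0.46, Cenpe by 3.50 ± 0.62, Mki67 by 3.02 ± 0.55 and Top2a by 2.42 ± 0.48. Prc1 lost its call in 3 of the 20 fits that left out a library.

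Set against tumours, macro-mets were higher in most called members in BALB/c mice and lower in all called members in NSG mice. The comparison shares its libraries with those above. In BALB/c mice 27 members were called higher and 6 lower, against 19.6% and 18.2% of tested genes (median 0.67). Aurkb rose most (2.37 ± 0.20 (SE), adjusted p = 1.17e-09), then Ncaph, a condensin subunit (1.94 ± 0.15), Espl1 (1.93 ± 0.22) and Incenp (1.73 ± 0.18). All 5 cyclin members, all 3 kinases, all 4 of the passenger complex and all 4 of the anaphase group rose, for example Foxm1 (1.45 ± 0.20) and Cdk1 (1.15 ± 0.15). The 6 that fell were Kif18a (-1.93 ± 0.44), Smc4 (-1.92 ± 0.44), Kif20b (-1.63 ± 0.53), Smc2 (-1.35 ± 0.43), Cenpe (-1.30 ± 0.43) and Aspm (-1.18 ± 0.36). Without BALB/c macro-met 2 Cenpe (-1.10) and Kif20b (-1.42) lost their calls, and Cenpe also did without BALB/c tumour 1 (-0.99). Pttg1 lost its call in 4 of the 10 fits that left out a library, and Cdc20 in 1.

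In NSG mice 0 members were called higher in macro-mets than in tumours and 22 lower, against 16.9% and 13.6% of tested genes (median -0.53, all tested genes 0.02). Hmmr (-2.37 ± 0.43), Smc2 (-2.14 ± 0.45) and Kif18a (-1.91 ± 0.45) fell most, and Cenpe (-1.67 ± 0.44), Top2a (-1.66 ± 0.34) and Cenpf (-1.14 ± 0.32) fell too. No cyclin, mitotic kinase, passenger complex or anaphase member was called. Aurkb stood at 0.46 ± 0.19 (adjusted p = 0.0661), Foxm1 at 0.44 ± 0.20 and Cdk1 at -0.14 ± 0.15. Ttk lost its call in 7 of the 10 fits that left out a library, and Nuf2 in 1. All 10 markers of the 4T1 epithelium fell as well. The interaction called 28 members higher and 0 lower, against 3.53% and 1.7% of tested genes, with Aurkb at 1.91 ± 0.27, Top2a at 1.78 ± 0.48, Cdk1 at 1.28 ± 0.21, Ccnb1 at 1.22 ± 0.23, Plk1 at 1.21 ± 0.28, Foxm1 at 1.01 ± 0.28 and Birc5 at 0.92 ± 0.23. Top2a lost this call without BALB/c macro-met 4 (1.51) or NSG macro-met 3 (1.68), Foxm1 and Kif23 lost it in 6 of the 20 fits that left out a library, and Kif14 and Ckap2l in 12.

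Strains were also compared within a stage, with BALB/c over NSG. In tumours 31 members were called lower in BALB/c mice and 0 higher, against 12.6% and 11% of tested genes (median -0.99, all tested genes 0.08). Aurkb (-2.07 ± 0.20 (SE), adjusted p = 6.50e-09), Ncaph (-1.76 ± 0.15) and Ube2c (-1.73 ± 0.20) were lowest, and all 5 cyclin members, all 3 kinases, all of the passenger complex and all of the anaphase group were lower. Cenpe (0.00 ± 0.42), Cenpf (0.04 ± 0.31) and Mki67 (0.22 ± 0.38) were not called. Top2a was called (-0.95 ± 0.34), and lost its call in 7 of the 10 fits that left out a library, as did Ect2, and Anln in 3. BALB/c tumour 5 had the lowest summed CPM of the 49 members (666), against 1215 to 1852 in the other 4 and 2263 to 2886 in NSG tumours. Summed markers of the 4T1 epithelium did not overlap either, with 7176 to 8044 CPM in BALB/c tumours and 9979 to 10407 CPM in NSG tumours (1 of 10 higher and 4 lower). Summed macrophage and dendritic cell markers ran from 63.4 to 149 CPM in BALB/c tumours, against 34.1 to 57.3 CPM in NSG tumours. The part of these lists in the members' values was not tested.

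In DTCs 24 members were called lower in BALB/c mice and 0 higher, against 21.7% and 17.1% of tested genes (median -0.42, all tested genes -0.01). Cenpf (-3.21 ± 0.33), Cenpe (-3.13 ± 0.45), Mki67 (-2.85 ± 0.40), Kif20b (-2.80 ± 0.53) and Smc4 (-2.77 ± 0.45) were lowest, and no cyclin, mitotic kinase, passenger complex or anaphase member was called, with Aurkb at 0.21 ± 0.19. In macro-mets 0 members were called in either direction, against 1.88% of tested genes higher and 0.76% lower in BALB/c mice. The largest differences there were in Hmmr (1.14 ± 0.42) and Aspm (1.10 ± 0.37). Of the counts of 0 called in all these comparisons, the count at an unadjusted p under 0.05 in that direction was 2 for NSG macro-mets over tumours, 6 for BALB/c over NSG macro-mets (higher) and 0 in the others. DESeq2 called 1 member in the macro-met comparison of strains, and limma on log2(TPM + 1) called 1 in NSG macro-mets over tumours.

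Length and base composition ordered the members. The 16 longest had a median exonic length of 8881 bases and the 16 shortest 3162.5 bases, and their median GC content was 43.3% and 48.9%. In NSG DTCs over tumours all 16 longest rose (median 2.14) and 6 of the 16 shortest did (0.31), against 16% of all tested genes. Over all tested genes within the same length ranges the medians were 0.28 (3021 genes) and -0.04 (7225 genes). In BALB/c DTCs over tumours it was the other way: 8 of the 16 longest rose (0.88) and all 16 shortest (1.60), with -0.25 and 0.01 over all genes of those lengths. Of all tested genes 20.4% rose. The longest minus shortest median there ran from -1.005 to -0.49 when 1 library was left out. In NSG macro-mets over DTCs 15 of the 16 longest fell (-3.77) and 8 of the 16 shortest (-0.43), against 22.4% of all tested genes. In BALB/c macro-mets over DTCs 14 and 12 fell (-1.15 and -0.57), against 14.2% of all tested genes. The difference of -0.57 was -0.25 without BALB/c DTC 1.

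**Figure D4:**
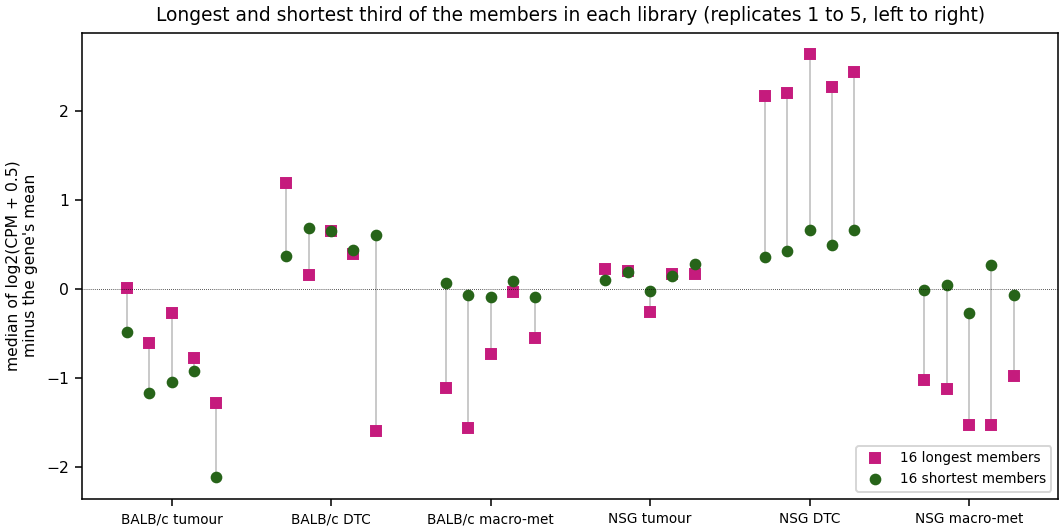
Median, over the 16 longest members (squares) and the 16 shortest (circles), of log2(CPM + 0.5) minus each gene's mean over the 30 libraries, joined for each library, by group and replicate. The squares lie 1.77 to 1.98 above the circles in NSG DTCs and below them in all 10 macro-mets, and BALB/c DTC 5 has the widest gap the other way (-2.20).

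Per library, the median of the longest minus that of the shortest members was -0.24 to 0.11 (log2) in NSG tumours, 1.77 to 1.98 in NSG DTCs and -1.79 to -0.91 in NSG macro-mets. In BALB/c mice it was 0.15 to 0.83 in tumours, then 0.82, -0.52, -0.0027, -0.04 and -2.20 in DTCs 1 to 5, and -1.49 to -0.13 in macro-mets. DTC 1 and DTC 5 thus lay at opposite ends of the BALB/c DTCs. DTC 1 had the highest sum of lung markers, and DTC 5 the highest correlation of deviation with GC content. The part of either in the members' values was not tested.

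In the comparisons given here, coding GC content followed the changes most closely of the 4 properties computed. Across the 49 members, which share libraries and are not independent, Spearman's rho of the log2 fold change was 0.67 with exonic length, 0.73 with coding length, -0.69 with GC content and -0.78 with coding GC content in NSG DTCs over tumours. It was -0.45, -0.55, 0.63 and 0.66 in BALB/c DTCs over tumours, and -0.61, -0.62, 0.79 and 0.84 in NSG macro-mets over DTCs. Over all tested genes rho with GC content was -0.36, 0.30 and 0.46 in these comparisons. Of the 16 members lowest in GC all rose in NSG DTCs (median 2.03), and of the 16 highest 4 did (0.34). Of all tested genes 16% rose there. Over all tested genes, binned by GC content, medians in NSG DTCs over tumours were also higher at low GC. They ran from 0.88 at 37.3% GC to 0.43 at 42.7%, and from 0.09 at 48.8% to -0.14 at 55.8%. In BALB/c macro-mets over DTCs the 16 members lowest in GC had a median of -1.29 and the 16 highest -0.50. Binned medians of all tested genes there did not run 1 way, with -0.33 at 37.3% GC, 0.07 at 48.2% and -0.06 at 62.3%. The 2 properties overlapped: 7 members were among both the 16 longest and the 16 lowest in GC. Mad2l1, a checkpoint gene with a long exonic length (8390 bases over merged exons) but a coding sequence of 615 bases, had 1.55 ± 0.14 in BALB/c and 0.42 ± 0.14 in NSG DTCs over tumours. Espl1, long (8749 bases) but GC-rich (56.1%), had 2.38 ± 0.23 and 0.72 ± 0.22.

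**Figure D5:**
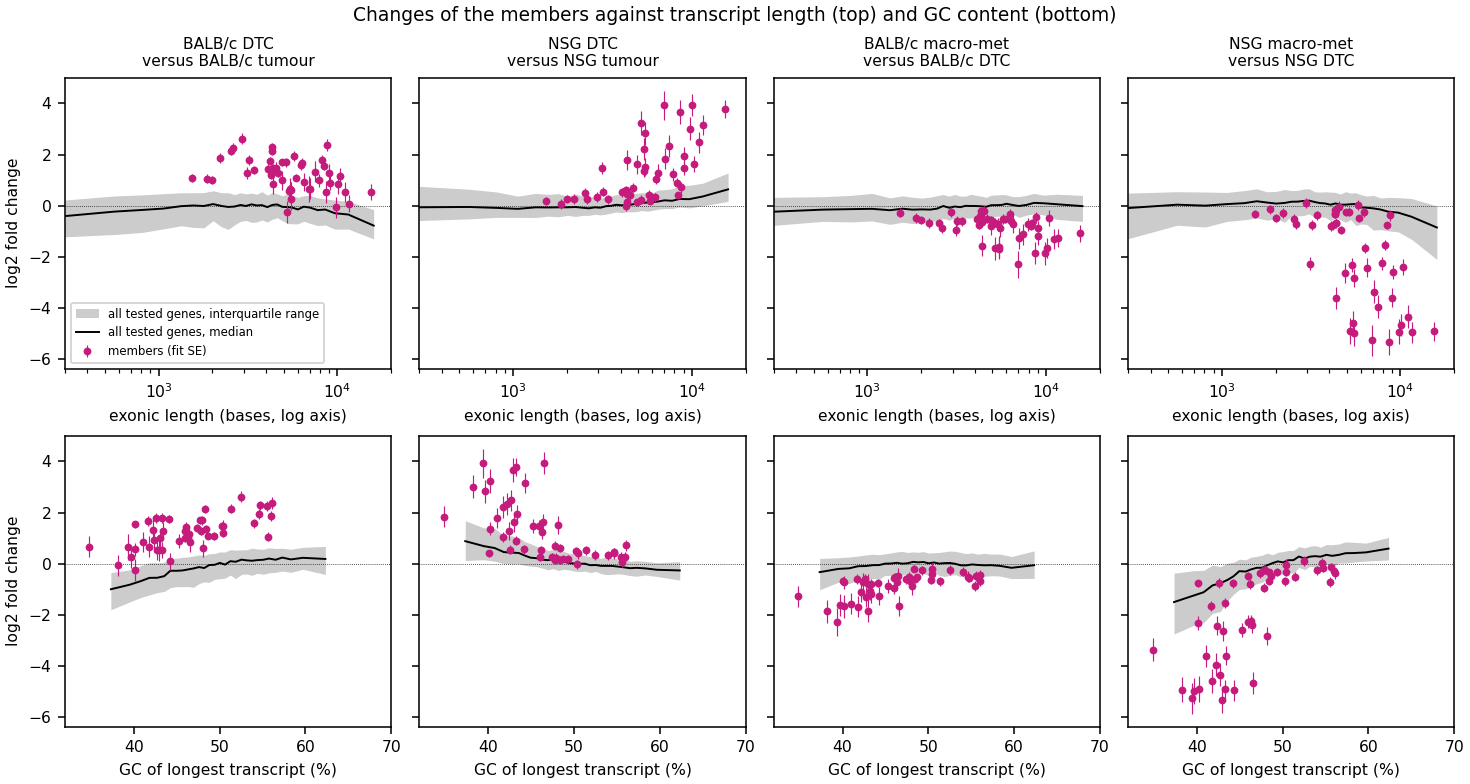
Log2 fold change (± SE) of the 49 members (points) in 4 comparisons against exonic length (top, log axis, bases) and GC content of the longest transcript (bottom, percent), over the median (line) and interquartile range (band) of all tested genes in 30 bins. In NSG mice the long, AT-rich members lie furthest from the line, above it in DTCs over tumours and below it in macro-mets over DTCs.

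Since the levels of all tested genes followed GC content in many libraries, the fits were repeated with offsets per library and gene from spline trends. With offsets on the GC content of the longest transcript and on exonic length (transcript offsets), 24 members rose in NSG DTCs. Cenpe (2.95), Cenpf (2.92), Mki67 (3.48) and Top2a (1.24) kept their calls. With offsets on coding sequences, chosen after seeing the data, 18 rose, and these 4 had 2.41, 2.55, 2.94 and 0.81, again called. Ccnb1 lost its call with either, and the rises of Mad2l1 and Spc25 lost their calls and turned below 0 with both (-0.48 and -0.17 for Mad2l1, -0.0062 and -0.55 for Spc25). The longest minus shortest median in NSG DTCs over tumours was 1.83 without offsets, 1.22 with transcript offsets and 0.86 with coding offsets. In BALB/c DTCs over tumours offsets raised the count to 43 (transcript) and 47 (coding) members, and in BALB/c over NSG tumours to 38 and 39 lower. The 6 falls in BALB/c macro-mets over tumours became 3 and 0, and in DTCs the 24 members lower in BALB/c than in NSG mice became 17 and 12. The share of all tested genes called with each offset is not given here. Whether these counts moved more than that share was not tested. Since offsets take out any change that follows GC content, biological or technical, the 2 cannot be told apart by them.

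The other genes of mitosis, 64 written as a list of which 61 were tested, moved with the members. In BALB/c DTCs over tumours 54 rose and 0 fell (median 1.26), against 20.4% and 21% of all tested genes. Fam83d, a spindle protein, was at 2.85 ± 0.23. In NSG DTCs over tumours 37 rose and 0 fell (0.59), against 16% and 9.55% of all tested genes. Knl1, the scaffold of the outer kinetochore, was at 3.54 ± 0.49. In macro-mets over DTCs 32 fell in BALB/c mice and 33 in NSG mice, where 1 rose. Of all tested genes 14.2% fell in BALB/c mice, and 22.4% fell and 21.3% rose in NSG mice. In BALB/c over NSG tumours 49 were lower, against 12.6% of all tested genes. For 25 genes of DNA replication the counts were 24 higher in BALB/c DTCs over tumours, 16 higher in NSG DTCs over tumours and 22 lower in BALB/c over NSG tumours. The shares of all tested genes there were 20.4%, 16% and 12.6%. In NSG macro-mets over tumours 2 of these 25 genes rose and 2 fell, against 16.9% and 13.6% of all tested genes. Pola1, the catalytic subunit of DNA polymerase alpha, moved like the long members, at 2.26 ± 0.47 in NSG DTCs over tumours and -4.22 ± 0.51 in NSG macro-mets over DTCs. Rrm2, a subunit of ribonucleotide reductase, was at 2.60 ± 0.21 in BALB/c DTCs over tumours and 1.04 ± 0.20 in NSG DTCs over tumours.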

How the data were processed

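RNA of sorted 4T1-tdTomato cells was sequenced in 30 libraries, 5 in each of 6 groups. Per the submitters' processing notes, reads were trimmed with Trimmomatic 0.36 and aligned with STAR 2.5.2b to GRCm38; the counting tool, the annotation, the use of strand and the lengths behind TPM are not given in the sources used here. The authors deposited raw counts per gene and TPM per gene for all samples. Genes that share or overlap exons can therefore not be told apart beyond what the authors' counting did. All per-sample columns were used.

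Counts were tested with edgeR 4.0.16 (R 4.3.3): TMM scaling, filterByExpr by group (17774 of 49315 genes, 99.97% of counts), 1 mean per group, robust quasi-likelihood fit with 24 residual degrees of freedom, 2-sided test and Benjamini-Hochberg adjustment over all tested genes. A call is an adjusted p under 0.05. SE is the log2 fold change divided by the square root of F, without its sign. The median biological coefficient of variation was 0.269. CPM are TMM-scaled; TPM are the authors' and serve for levels between genes and for limma 3.58.1 on log2(TPM + 1). DESeq2 1.42.0 was an alternative. The edgeR fit was also repeated with RLE scaling, with no filter on low counts and with offsets on GC content and length. It was further run on the groups compared alone and leaving out each library in turn. Exonic length, GC content and coding sequences came from GENCODE M21 (GRCm38), which held 49056 of the IDs. No 2 libraries of a group matched within sampling noise (lowest chi-square per degree of freedom 15.5 over 60 pairs). The scripts were tested on simulated data.

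The members and gene lists were chosen with earlier results of these data known. Beside the members that the choice itself names (Cenpe, Cenpf, Mki67, Aurkb, Birc5) and Cdk1, Ccnb1, Foxm1, Plk1 and Top2a, the 3 largest called rises and falls of each comparison are named, members that go against their role, others where their role is described, and at most 2 genes of each other list per comparison.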

Additional observations from a re-analysis of the deposited data

Results flagged for a closer look

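Of 72 groups of 5 libraries checked for a library far from the others, 5 held one, and chance gives about 1 in 20. Aurkb was at 55.05 CPM in NSG DTC 1, below the other NSG DTCs, and at 86.34 CPM in NSG macro-met 4, above the other NSG macro-mets. Cdk1 was at 164.5 CPM in BALB/c DTC 5, above the other BALB/c DTCs, and Top2a at 93.91 CPM in NSG tumour 3, below the other NSG tumours. In NSG DTC 3 the median of the 16 longest members lay 1.981 (log2) above that of the 16 shortest, the widest of its group.

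Changes that differed between the strains by the interaction test are given as BALB/c minus NSG log2 fold change. For DTC over tumour 25 members were higher and 10 lower. The higher included Aurkb (2.281), Plk1 (1.601), Cdk1 (1.564), Foxm1 (1.546), Ccnb1 (1.198) and Birc5 (1.152), and the lower Cenpf (-3.25), Cenpe (-3.131) and Mki67 (-3.075). For macro-met over DTC 24 members were higher, among them Cenpf (3.827), Cenpe (3.501), Mki67 (3.021) and Top2a (2.418). For macro-met over tumour 28 were higher, among them Aurkb (1.907), Top2a (1.778), Cdk1 (1.283), Ccnb1 (1.22), Plk1 (1.207), Foxm1 (1.011) and Birc5 (0.9198).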

How the results depend on the processing

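No paired analysis was possible because the tags that open the sample titles are not shared between groups. The titles give no replicate numbers, and those used here were assigned within each group. Of 6996 values of named genes under settings other than leaving out 1 library, 6472 kept direction and call, 253 lost a call, 231 gained one and 40 turned round; when 1 library was left out, 7711 of 7950 were kept and 0 turned round. In 443 further cases the sign changed where neither fit made a call. Where a value changed, its cause was not tested. Offsets for GC content alone or for coding sequences, the fits without lung-rich or muscle-rich libraries, and the splits by coding length or GC content were chosen after seeing the data. Strand and counting rules limit every comparison; organ, route and number of cells differ between lung groups and tumours, and the day differs at least in part in each comparison of groups except BALB/c over NSG DTCs.

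Counts of called members moved as follows, given without the share of all tested genes called under each setting. With log2(TPM + 1), 22 fell in BALB/c macro-mets over DTCs and 1 rose in NSG macro-mets over tumours. In BALB/c macro-mets over tumours 3 fell with GC and length offsets, 3 with GC offsets and 0 with coding offsets. With coding offsets 18 rose in NSG DTCs over tumours. In NSG macro-mets over DTCs 1 rose with each of these 3 offsets, and in NSG macro-mets over tumours 1 rose with coding offsets and 2 with only the groups compared. In BALB/c over NSG DTCs the higher numbered 1 with GC and length offsets, 3 with length offsets, 3 with GC offsets, 4 with coding offsets and 2 with only the groups compared, and the lower 12 with coding offsets. In BALB/c over NSG macro-mets DESeq2 called 1 higher and the groups alone 1 lower. For the interaction of DTC over tumour 5 were lower with coding offsets. For that of macro-met over DTC 10 were higher with coding offsets, and the lower numbered 1 with GC and length or length offsets, 2 with GC or coding offsets and 3 with only the groups compared.

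The longest minus shortest median kept its sign. In BALB/c macro-mets over tumours it was -0.69 with GC and length, -0.71 with GC and -0.56 with coding offsets, and -1.94 (lowest minus highest) by GC content. In NSG DTCs over tumours it was 1.22 with GC and length, 1.53 with length, 1.36 with GC and 0.86 with coding offsets, 1.55 on TPM, 1.31 with the 24 longest and 24 shortest, 1.43 by the authors' lengths and 1.69 by GC content. In NSG macro-mets over DTCs it was -2.27, -2.92, -2.47 and -1.64 with these 4 offsets, -2.47 on TPM, -2.59 with 24 members a side and -2.47 by the authors' lengths. In NSG macro-mets over tumours it was -0.72, -0.71 and -0.48 with GC and length, GC and coding offsets, -0.63 on TPM and -1.56 by GC content. In BALB/c over NSG tumours it was 0.34 with coding offsets, 0.37 with 24 members a side and 0.90 by coding length, and in DTCs -1.01 with GC and length and -0.87 with coding offsets.

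Values that turned round did so under offsets. Mad2l1 had -0.48, -0.0066, -0.40 and -0.17 (GC and length, length, GC, coding) in NSG DTCs over tumours, 0.65, 0.56 and 0.25 (GC and length, GC, coding) in NSG macro-mets over DTCs, 1.198, 0.48, 1.03 and 0.60 (all 4) in BALB/c over NSG DTCs, and -1.26, -1.12 and -0.74 (GC and length, GC, coding) for the interaction of macro-met over DTC. Spc25 had -0.0062, -0.092 and -0.55 in NSG DTCs over tumours and 0.11, 0.24 and 1.02 in NSG macro-mets over DTCs (GC and length, GC, coding), 0.61 and 1.10 (GC, coding) in BALB/c over NSG DTCs and -1.38 (coding) for the interaction of macro-met over DTC. In BALB/c over NSG DTCs Nuf2 had 0.18, 0.16 and 0.37 (GC and length, GC, coding), Prc1 0.17 and 0.0031 (GC and length, GC) and Ccnb1 0.58 (GC). For the interaction of macro-met over DTC Nuf2 had -0.27 (coding), Prc1 -0.22 and -0.073 (GC and length, GC) and Ccnb1 -0.77 (GC). Ccnb1 had 0.0099 (GC) in NSG macro-mets over DTCs, and in BALB/c macro-mets over tumours Ect2 had 0.57 and 0.49 (GC, coding) and Knl1 0.19 (coding). For the interaction of DTC over tumour, with coding offsets, Top2a had 1.09, Bub1 1.02 and Hmmr 0.045.

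Without 1 library, called members ran from 33 to 43 (BALB/c DTCs over tumours), 29 to 38 lower (BALB/c macro-mets over DTCs), 28 to 33 (NSG DTCs over tumours) and 34 to 37 lower (NSG macro-mets over DTCs).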
